A study of Mus musculus with 18 samples.

Results

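Indian hedgehog (Ihh) and parathyroid hormone-related protein (PTHrP, gene Pthlh) are the paired secreted signals of the growth plate, and 7 genes of their signalling were followed here: the ligands Ihh and Pthlh, the receptors Ptch1, Smo and Pth1r, the transcription factor Gli1 and the decoy receptor Hhip. They were chosen by name among the 20275 genes of the mRNA count matrix, and all 7 were present. The study compared bone marrow of C57B6/J mice at embryonic day 16.5 (E16.5), E18.5, postnatal day 0 (P0) and in adults by single-cell RNA sequencing, to ask how the stroma that surrounds blood-forming cells differs between these ages. Stromal cells were sorted as CD45-Ter119-, that is, without the surface marker of white blood cells and that of red cells. The labels name no transgene, deletion or agent in any group, and give no age for the adults. Fetal and newborn cells came from whole skeletons without the head, adult cells from tibias, femurs, pelvis and spine, and only the adult preparation included lysis of red cells, so stage, bones and preparation cannot be told apart. Bones were digested with collagenase and DNase, and animals were pooled. There was 1 stromal library per stage (n = 1), so no difference between stages has a replicate check and none was tested.

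The deposited annotation held 35219 stromal cells in 66 clusters, from 6267 cells in the adult library, 6642 at E18.5 and 8226 at E16.5 to 14084 at P0. The libraries held 91868751 to 194892476 UMIs (unique molecular identifiers, 1 per captured transcript), with a median of 11810 to 15590.5 UMIs per cell. Of 35079 distinct stromal barcodes, 136 (0.388%) occurred in more than 1 library. A level is given as CPM (counts-per-million), the summed UMIs of a gene in a cluster over all UMIs of that cluster, with an exact Poisson 95% interval. These intervals and those of ratios and shares cover counting error only, since the cells of a library share their source and are not replicates. Clusters carry codes such as C5 or F8, and because they had been built from the same counts, differences between clusters are descriptions. Codes beginning with C and a number (and CF1, CF2) are called C clusters here and marked most of the cartilage. C5 had 20927, 42085 and 38487 CPM of Col2a1, the main cartilage collagen, at E16.5, E18.5 and P0, and C10 had 65486 CPM in the adult. Adult F9 (916 cells), which is no C cluster, had 19359 CPM and was paired by its markers with the study's name Osteochondro. Endothelium, which should lack it, still had 2975, 2073 and 8018 CPM of Col2a1 at the perinatal stages and 1761 (arterial) and 706 CPM (sinusoidal) in the adult. Levels are compared within a gene and never between genes.

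In the growth plate, Ihh is made by chondrocytes that have stopped dividing and begin to enlarge (prehypertrophic and early hypertrophic cells). It binds Patched1 (Ptch1), which releases Smoothened (Smo) and lets Gli factors act, and Ptch1, Gli1 and Hhip are themselves classical targets of the pathway. PTHrP, made by resting and periarticular chondrocytes, signals through the receptor encoded by Pth1r and holds chondrocytes in a dividing state, and Ihh in turn sustains Pthlh, which closes a feedback loop between both ends of the plate.

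The promoters of Ihh, Pth1r, Ptch1 and Hhip are shown because the comparison of the cartilage clusters turns on these genes. Each run holds the 250 bases before a RefSeq start site, on the strand of the gene and 5′ to 3′, in build GRCm38 (mm10). Capitals mark the cyclic AMP response element TGACGTCA, and no letters are in capitals where none of the searched motifs was found. The Ihh window lies at chr1:74951673-74951922 (minus strand), the Pth1r window, the third of 3 start sites and inside the span of the gene, at chr9:110742611-110742860 (minus), the Ptch1 window, also inside its gene, at chr13:63565736-63565985 (minus), and the Hhip window, with 52 bases inside its gene, at chr8:80058009-80058258 (minus).
Ihh: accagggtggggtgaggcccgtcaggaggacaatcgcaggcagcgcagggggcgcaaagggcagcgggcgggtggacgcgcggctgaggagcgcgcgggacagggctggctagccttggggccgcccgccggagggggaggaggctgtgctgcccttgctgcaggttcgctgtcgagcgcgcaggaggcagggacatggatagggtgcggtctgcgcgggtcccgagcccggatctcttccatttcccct
Pth1r: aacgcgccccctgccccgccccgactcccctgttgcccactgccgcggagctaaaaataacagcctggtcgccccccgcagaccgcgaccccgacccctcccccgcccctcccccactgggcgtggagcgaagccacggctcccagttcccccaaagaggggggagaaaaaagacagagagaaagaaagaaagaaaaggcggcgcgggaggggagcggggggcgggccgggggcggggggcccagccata
Ptch1: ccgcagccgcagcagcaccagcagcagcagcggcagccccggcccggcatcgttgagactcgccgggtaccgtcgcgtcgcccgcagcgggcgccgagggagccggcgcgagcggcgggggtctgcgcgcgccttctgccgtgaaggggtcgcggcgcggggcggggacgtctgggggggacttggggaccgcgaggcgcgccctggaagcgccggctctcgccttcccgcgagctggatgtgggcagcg
Hhip: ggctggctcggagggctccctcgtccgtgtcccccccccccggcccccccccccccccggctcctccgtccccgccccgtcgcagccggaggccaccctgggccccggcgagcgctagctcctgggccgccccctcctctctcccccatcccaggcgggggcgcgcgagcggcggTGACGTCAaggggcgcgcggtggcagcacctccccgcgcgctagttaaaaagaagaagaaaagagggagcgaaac
These windows were rich in G and C, with 72% for Ihh, 70.4% for the Pth1r window shown, 78.4% for Ptch1 and 76% for Hhip, and held 24, 22, 41 and 28 CG pairs. The other start sites of Pth1r, at chr9:110747146-110747395 and chr9:110743687-110743936, had 56% and 65.6% G and C with 3 and 16 CG pairs, so the outermost one stood apart from the rest. Smo (chr6:29735247-29735496, plus strand) had 68.4% and Pthlh (chr6:147264014-147264263, minus strand) 75.2%.

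Both strands were searched for 5 exact motifs. Of the 8 windows of the 6 matched genes (all but Gli1), the only match was the cyclic AMP response element of Hhip, which begins 75 bases before the start site and occurs in 508 of 32851 windows of the same length genome-wide (1.55%). The GLI motif GACCACCCA (74 windows, 0.225%), the RUNX motif TGTGGT (4614, 14.0%), the FOXA motif TGTTTAC (1040, 3.17%) and TATAAA (4063, 12.4%) had no match. The absence of a match says only that these letters are not in these windows. The genes lie at chr1:74945315-74951672 (Ihh), chr6:147252109-147264013 (Pthlh), chr13:63508328-63573460 (Ptch1), chr6:29735497-29761366 (Smo), chr9:110722085-110747145 (Pth1r), chr10:127329882-127341579 (Gli1) and chr8:79965850-80058060 (Hhip), and all are annotated as protein coding.

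Ihh, the chondrocyte-derived hedgehog ligand, was highest in a single C cluster at each stage. Lower levels were seen in CF1 at E18.5, in CF1 and CF2 at P0, and in Osteo in the adult. Its level in C5 was 173 CPM (166 to 180) at E16.5, 237 CPM (228 to 245) at E18.5 and 80.7 CPM (77.5 to 84.1) at P0, and in the adult it was 137 CPM (131 to 144) in C10. The next cluster was C3 at E16.5 (3.27 CPM), CF1 at E18.5 (46.1 CPM on 32 UMIs), CF1 at P0 (19.4 CPM) and Osteo in the adult (58.1 CPM, 52 to 64.8). The highest over the next cluster was thus 52.9 (38.6 to 74.5), 5.13 (3.63 to 7.51), 4.17 (3.17 to 5.6) and 2.37 (2.10 to 2.67). CF1 was shallow, with a median of 1379 UMIs per cell at E18.5 and 2367 at P0, against 31761 and 25228.5 in C5 of the same libraries. At P0 the third cluster, CF2, was close to CF1 with 16.1 CPM, and was shallower still, with a median of 516 UMIs per cell.

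Endothelium, where the gene should be absent, gave the background for Ihh. Endothelial clusters had 0 CPM at E16.5 and E18.5, 0.819 CPM at P0, and 0.831 (arterial, AECs) and 0.539 CPM (sinusoidal, SECs) in the adult. After thinning each cell to 1000 UMIs, 13.6% of C5 cells had an Ihh UMI at E16.5 (87 of 641, exact Clopper-Pearson 95% interval 11.0 to 16.5), 13.3% at E18.5 (53 of 400, 10.1 to 17.0) and 4.49% at P0 (50 of 1114, 3.35 to 5.87). In the adult the share was 8.78% in C10 (33 of 376, 6.12 to 12.1) and 2.49% in Osteo (9 of 361, 1.15 to 4.68). CF1, the second cluster at E18.5 and P0, had 4.64% (11 of 237, 2.34 to 8.15) and 1.70% (18 of 1056, 1.01 to 2.68). These shares leave out 134 of 371 and 39 of 1095 CF1 cells, which had fewer than 1000 UMIs. The Ihh level of CF1 was 46.1 CPM at E18.5 and 19.4 CPM at P0, against 30.8 and 13.2 CPM over all stromal cells. Whether RNA from other cells adds to the level in so shallow a cluster was not tested. No thinned endothelial cell had one, among 71, 83, 197 and 583 cells. Taking a count of 0 as up to 3 counts, this allows shares of up to 4.23%, 3.61%, 1.52% and 0.515%. The exact Clopper-Pearson upper limits were wider at the perinatal stages, with 5.06%, 4.35% and 1.86%. Without thinning, 61.5%, 77.8% and 36.4% of C5 cells and 29.9% of C10 cells had an Ihh UMI, at medians of 21987.5, 31761, 25228.5 and 36462 UMIs, against 0%, 0%, 0.897% and 0.505% of endothelial cells at medians of 10893, 9992, 10797 and 5331.5.

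**Figure D1:**
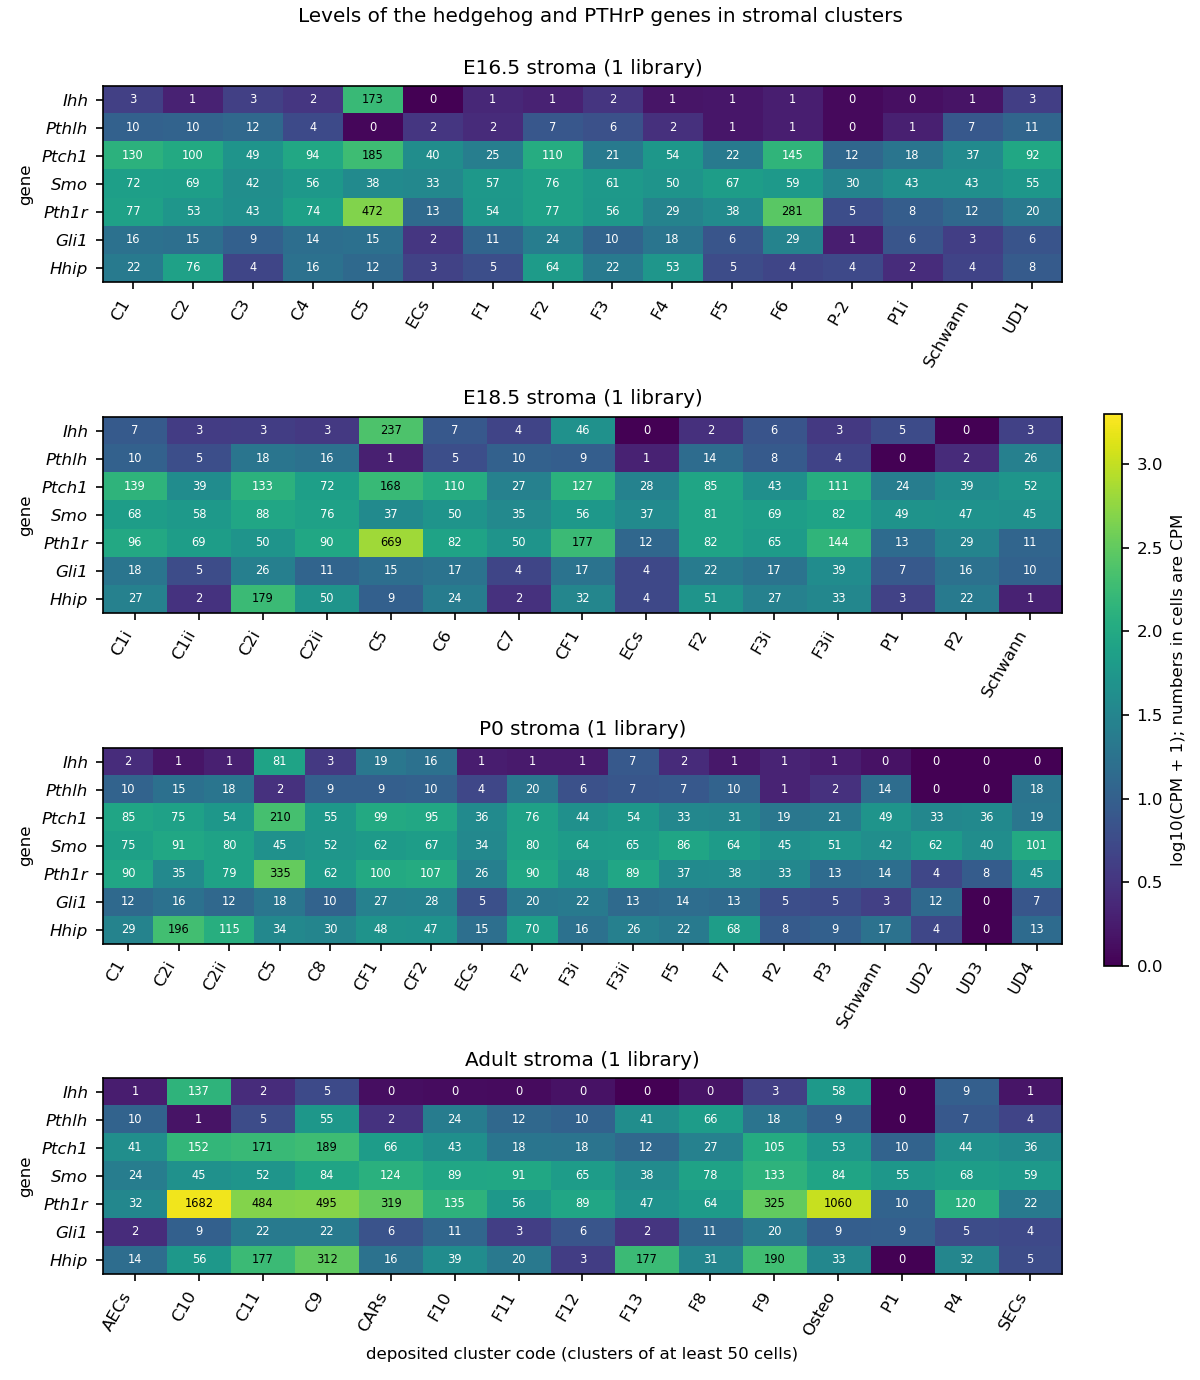
Heat maps of the 7 genes (vertical axis) in every stromal cluster of at least 50 cells (horizontal axis, cluster code), 1 map for each of the 4 libraries, with colour for log10(CPM + 1) and the rounded CPM printed in each cell. Ihh and Pth1r were highest in C5 (C10 in the adult), whereas Pthlh, Hhip and Smo were not.

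Pthlh, the PTHrP ligand, had low levels and no single peak in the perinatal libraries. At E16.5 the highest clusters were C3 (11.9 CPM), UD1 (10.9) and C2 (10.3), at E18.5 Schwann (26.3 CPM on 24 UMIs), C2i (18.0) and C2ii (16.0), and at P0 F2 (19.6), C2ii (18.0) and UD4 (17.6). At all of these stages the interval of the highest over the next cluster held 1, so their order was not resolved. In the adult, Pthlh was highest in F8 (65.5 CPM, 61.4 to 69.8) and the cartilage cluster C9 (55.2 CPM, 51.0 to 59.6), a ratio of 1.19 (1.07 to 1.31), followed by F13 with 40.8 CPM. F8 was paired by its markers with the study's name MSCs-PαS, and C9 with Chondro-1.

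The Ihh-rich clusters were at the low end for Pthlh. Its level was 0.14 CPM in C5 at E16.5 (2 UMIs), 0.967 CPM at E18.5, 1.92 CPM at P0 and 0.509 CPM in adult C10. Endothelial cells had 2.30, 1.06 and 4.09 CPM at the perinatal stages and 10.4 (AECs) and 3.77 CPM (SECs) in the adult, so perinatal levels of a few CPM did not stand apart from those of endothelium. Thinned shares of cells with a Pthlh UMI reached 10% in F13 (7 of 70), 6.11% in C9 (35 of 573) and 4.18% in F8 (47 of 1124) in the adult, against 0.172% of adult endothelial cells (1 of 583, median 5331.5 UMIs). At P0 the level was 19.6 CPM in F2 (17.3 to 22.1) against 4.09 CPM in endothelium (1.96 to 7.53), and without thinning 16.1% of F2 cells (152 of 944, median 12689.5 UMIs) and 3.14% of endothelial cells (7 of 223, median 10797) had a Pthlh UMI. After thinning the shares were 1.80% (17 of 942, 1.05 to 2.87) and 1.52% (3 of 197, 0.315 to 4.39), so at that depth the difference was not detectable.

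**Figure D2:**
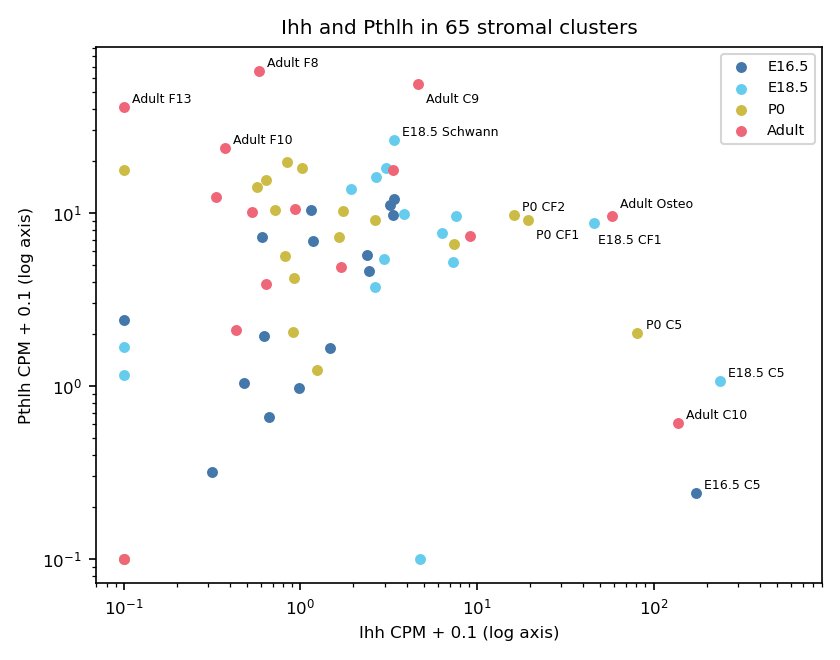
Ihh against Pthlh in the 65 clusters of at least 50 cells, as CPM plus 0.1 on log axes, coloured by stage. C5 and adult C10 lay at high Ihh and low Pthlh, and adult F8, C9 and F13 at high Pthlh and low Ihh.

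Ptch1, the hedgehog receptor that restrains Smo, was expressed broadly and peaked in cartilage. C5 had the highest level at E16.5 (185 CPM, 178 to 192), at E18.5 (168 CPM) and at P0 (210 CPM). The next clusters were F6 at E16.5 (145 CPM), C1i at E18.5 (139 CPM) and CF1 at P0 (98.7 CPM), giving ratios of 1.28 (1.14 to 1.44), 1.21 (1.14 to 1.28) and 2.13 (1.89 to 2.42). In the adult the order changed: C9 had 189 CPM, C11 171 CPM and C10, the Ihh-rich cluster, 152 CPM, with C9 over C11 at 1.1 (1.02 to 1.20).

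Smo, the signal transducer released by Ptch1, was the most even of the 7 and did not peak with Ihh. Its highest clusters were F2 at E16.5 (76.4 CPM), C2i at E18.5 (87.8 CPM), UD4 at P0 (101 CPM) and F9 in the adult (133 CPM), and in all 4 libraries the interval of the highest over the next cluster held 1. C5 had 37.5, 37.2 and 45.4 CPM of Smo, and adult C10 had 45.4 CPM. Endothelium at P0 had 33.6 CPM.

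Pth1r, the receptor for PTHrP and parathyroid hormone, had its highest level in the same clusters as Ihh. C5 had 472 CPM (461 to 483) at E16.5, 669 CPM (655 to 684) at E18.5 and 335 CPM (328 to 342) at P0, and adult C10 had 1682 CPM. The next cluster had 281 CPM (F6, E16.5), 177 CPM (CF1, E18.5), 107 CPM (CF2, P0) and 1060 CPM (Osteo, adult). Adult C9 (495 CPM), C11 (484 CPM), F9 (325 CPM) and the CXCL12-abundant reticular cells, CARs (319 CPM) all exceeded the P0 clusters other than C5. Endothelial clusters had 12.6, 11.7 and 25.8 CPM at the perinatal stages and 32.4 (AECs) and 22.1 CPM (SECs) in the adult.

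Gli1, the pathway's transcription factor and a common readout of its activity, did not peak in the Ihh-rich clusters. The highest clusters were F6 at E16.5 (28.5 CPM), F3ii at E18.5 (39.0 CPM), CF2 at P0 (27.8 CPM) and C9 in the adult (22 CPM). In the shallow CF2, 20 of 1098 cells held a Gli1 UMI. Only at E18.5 did the interval of the highest over the next cluster leave out 1 (F3ii over C2i, 1.5, 1.16 to 1.95). C5 had 15.4, 14.5 and 18.5 CPM, and adult C10 9.23 CPM.

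Hhip, the membrane decoy that binds hedgehog ligands, was highest in C clusters other than the Ihh-rich one. It reached 75.8 CPM in C2 at E16.5, 179 CPM in C2i at E18.5, 196 CPM in C2i at P0 and 312 CPM in C9 in the adult. The next cluster had 64.0 CPM (F2), 50.6 CPM (F2), 115 CPM (C2ii) and 190 CPM (F9). C5 had 12.5, 9.35 and 33.5 CPM and adult C10 55.7 CPM, well under those maxima.

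Counted by code, 5 of 7 genes were highest in a C cluster at each stage, while of all genes with at least 50 UMIs in the library, 16.3% (E16.5), 27.4% (E18.5), 16.5% (P0) and 17% (adult) had their highest cluster there. C clusters were 5 of 16, 8 of 15, 7 of 19 and 3 of 15 ranked clusters. Ihh, Ptch1, Hhip and Pth1r were among the 5 at each stage. The remaining gene was Pthlh at E16.5, Smo at E18.5 and Gli1 at P0 and in the adult. Its interval over the next cluster held 1 each time, and for Pthlh and Smo that next cluster was no C cluster (UD1 and F3ii). Taking instead the names of the study, paired with codes through its marker lists, 5, 2, 4 and 6 of 7 genes were highest in a cartilage cluster, against 16.3%, 23.7%, 11.6% and 19.1% of all genes. The higher adult count comes from F9, which counts as cartilage by its paired name alone. Smo was highest there, with an interval over the next cluster that held 1. The lower counts at E18.5 and P0 turn on pairings with osteo-lineage names: E18.5 C5 paired best with OLC although it had 42085 CPM of Col2a1 and 208 CPM of Col1a1, and P0 C2i and C2ii paired with OLC-1 and OLC-2. At P0, C2i had 25182 CPM of Col2a1 and 2184 CPM of the bone collagen Col1a1, and C2ii 68580 and 8934 CPM, against 393 to 4233 CPM of Col1a1 in the other C clusters, so markers of both lineages were present and the P0 peak of Hhip counts as cartilage only by code. Of 26 other hedgehog and PTHrP pathway genes, 10, 13 and 13 were highest in a C cluster at E16.5, E18.5 and P0, and 7 of 25 in the adult, and by the paired names 10, 7 and 8 of 26 and 8 of 25. This list also holds the transcription factors Mef2c, Runx2, Runx3, Foxa2 and Foxa3, beside components of the signalling itself.

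The Ihh-rich cluster was next set against the remaining C clusters of its library, 662 against 3468 cells at E16.5, 401 against 4050 at E18.5, 1116 against 7154 at P0 and 381 against 713 in the adult. Ihh was 69.2-fold (57.7 to 83.8), 39.3-fold, 32.6-fold and 37.8-fold higher, and Pth1r 7.62-fold, 8.45-fold, 4.77-fold and 3.42-fold higher (472 against 61.9, 669 against 79.2, 335 against 70.2 and 1682 against 492 CPM). Pthlh went the other way, with ratios of 0.015, 0.104, 0.170 and 0.013. By C codes Hhip was also lower in each library, with ratios of 0.42, 0.27, 0.54 and 0.21, and Smo had ratios of 0.61 to 0.67. The P0 ratio of Hhip rests on C2i and C2ii, which the paired names leave out. By those names P0 cartilage as a whole, C5 included, had 31.7 CPM of Hhip against 33.5 CPM in C5, so Hhip was not lower there. The Ihh-rich cluster was thus high in the receptor of PTHrP and low in its ligand.

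By C codes, the ratios of Ptch1 and Gli1 differed between the perinatal and the adult library. Ptch1 was higher in C5 than in the other C clusters at E16.5 (185 against 94.7 CPM, 1.95), E18.5 (168 against 98.5, 1.71) and P0 (210 against 68.1, 3.09), whereas in the adult it was lower in C10 (152 against 184 CPM, 0.83, 0.78 to 0.88). For Gli1 the ratios were 1.13 (0.96 to 1.32), 1.01 (0.86 to 1.19), 1.48 (1.33 to 1.65) and, in the adult, 0.42 (0.34 to 0.52). The adult ratios leave out F9, which counts as cartilage by its paired name. With F9 counted, adult cartilage as a whole, C10 included, had 151 CPM of Ptch1, so C10 was not below the rest. For Gli1 that whole had 17.4 CPM, above the 9.23 CPM of C10. With 1 library per stage, the difference between the stages was not tested.

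**Figure D3:**
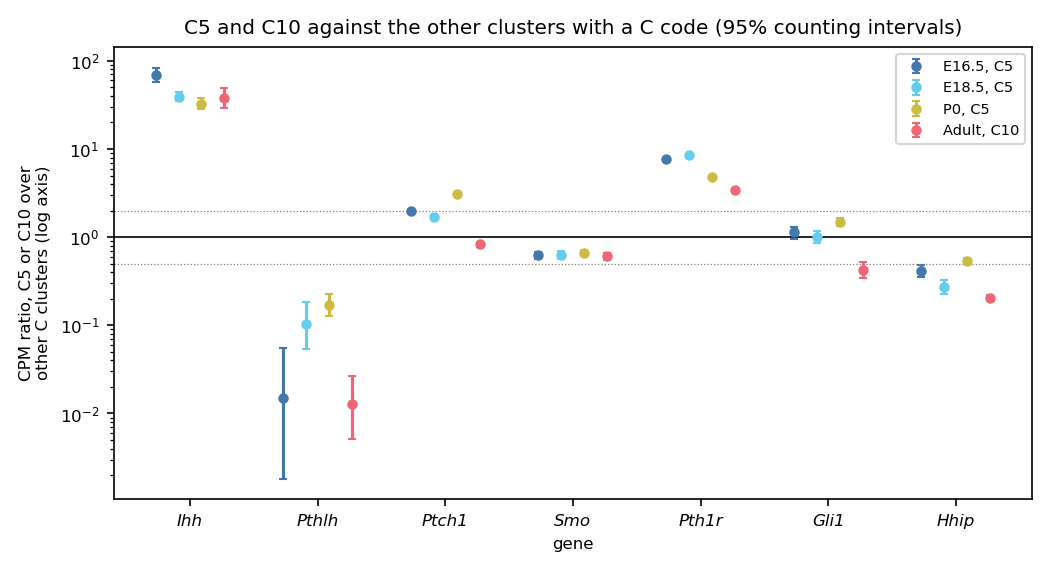
Ratio of each gene's CPM in C5 (C10 in the adult) to that in the other C clusters of the same library, on a log axis with exact 95% counting intervals and dotted lines at a ratio of 2 and its inverse. Ihh and Pth1r lay above 1 and Pthlh, Hhip and Smo below 1 in all 4 libraries, and Ptch1 crossed 1 in the adult. By the paired names, Hhip at P0 and Ptch1 in the adult were not lower in the Ihh-rich cluster than in the remaining cartilage.

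Since C5 and C10 were picked as the clusters rich in Ihh, its own ratio was fixed by the choice and Ihh was left out of the counts. By a rule of at least 2-fold with at least 10 UMIs in the higher group, 1 of the other 6 genes was higher and 2 lower in C5 at E16.5 (17.7% of all genes compared passed in either direction), again 1 and 2 at E18.5 (20%), 2 and 1 at P0 (16.8%), and 1 and 3 in adult C10 (19.9%). Of the other pathway genes, 6 were higher and 5 lower of 25 compared at E16.5, 7 and 7 of 26 at E18.5, 7 and 4 at P0, and 3 and 6 in the adult. Mef2c, a transcription factor that drives chondrocyte hypertrophy, was higher in all 4 libraries (538 against 75.5, 519 against 66.5, 254 against 60.1 and 321 against 48.3 CPM). Foxa2, a forkhead factor of hypertrophic chondrocytes, was also higher in all 4 (29.8 against 5.95 CPM at E16.5), and Runx2, Runx3 and Foxa3 in the 3 perinatal libraries. Boc, Cdon and Gas1, the co-receptors that present hedgehog ligand to Ptch1, were lower in all 4, with Gas1 at 8.12 against 144 CPM at E16.5 and 23.2 against 340 CPM at P0. The hypertrophic collagen Col10a1 was higher in C5 and C10 (984 against 1.90, 296 against 3.85, 194 against 4.91 and 1459 against 6.62 CPM), and the division marker Mki67 was lower (9.94 against 21.4, 13.1 against 55.3, 13.1 against 34.6 and 6.18 against 82.5 CPM).

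Within C5 and C10, cells were split by Col10a1 UMIs, a split chosen after the values had been seen. Cells with 0, with 1 to 9 and with 10 or more Col10a1 UMIs numbered 526, 50 and 86 at E16.5, 323, 43 and 35 at E18.5, 997, 88 and 31 at P0, and 298, 47 and 36 in the adult. Ihh was 118, 184 and 475 CPM in that order at E16.5, 196, 312 and 475 at E18.5, 65.8, 102 and 458 at P0, and 56.6, 280 and 555 in the adult. Ihh was therefore higher in cells with more Col10a1 in each library, and it was already present in cells without a Col10a1 UMI.

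Pth1r followed the same order, from 308 to 673 and 1288 CPM at E16.5, from 507 to 995 and 1585 at E18.5, from 292 to 384 and 1432 at P0, and from 1363 to 1815 and 3869 in the adult. Ptch1, by contrast, was lowest in the cells with the most Col10a1: 207, 151 and 79.6 CPM at E16.5, 187, 123 and 69.2 at E18.5, 216, 205 and 62.5 at P0, and 165, 167 and 37.2 in the adult. Gli1 and Hhip were also lowest in the cells with 10 or more, but there they rested on 2 to 5 and 2 to 6 UMIs. Gli1 was 18.0, 12.2 and 2.50 CPM at E16.5, 17.5, 5.38 and 1.67 at E18.5, 18.8, 19.6 and 5.89 at P0, and 10.6, 6.09 and 2.8 in the adult. Hhip was 14.5, 10.3 and 2.00 CPM at E16.5, 11.1, 4.04 and 1.67 at E18.5, 33.9, 40.5 and 3.54 at P0, and 64.5, 45.4 and 4.21 in the adult. For Gli1 the intervals of the middle and the highest bin overlapped at E18.5 (2.32 to 10.6 against 0.20 to 6.03) and in the adult (3.04 to 10.9 against 0.76 to 7.18), and for Hhip at E18.5 (1.48 to 8.79 against 0.20 to 6.03). At P0 Gli1 and Hhip, and in the adult Ptch1, were not lower in the middle bin than in the cells without Col10a1. Smo was lowest in the highest bin in 3 of 4 libraries (46.3, 42.6 and 25.9 CPM at P0). In each of these its intervals in the middle and the highest bin overlapped (34.7 to 51.7 against 16.2 to 39.3 at P0). At E18.5 and in the adult, the interval of the highest bin also overlapped that of the cells without Col10a1. Median UMIs per cell across these bins were 21946 to 22711 (E16.5), 31213 to 36818 (E18.5), 24995 to 26966 (P0) and 35684 to 42346 (adult).

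**Figure D4:**
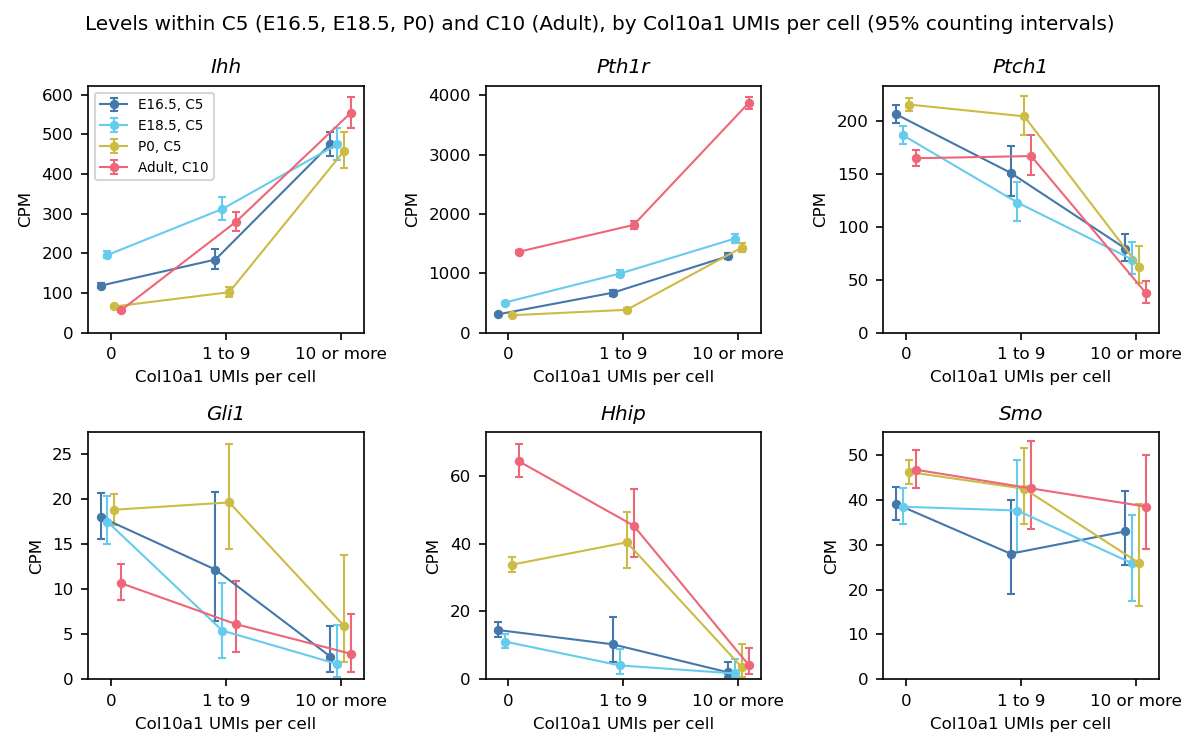
CPM (linear axes from 0) of 6 of the genes, without Pthlh, in C5 and adult C10 cells with 0, 1 to 9, or 10 and more Col10a1 UMIs, with exact Poisson 95% intervals. Ihh and Pth1r were highest, and Ptch1, Gli1 and Hhip lowest, in the cells with 10 or more, where Gli1 and Hhip rested on 2 to 6 UMIs.

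Cells were also split by Ihh itself, with cells holding at least 1 Ihh UMI set against those with none (407 against 255, 312 against 89, 406 against 710 and 114 against 267 cells). Pth1r was 608 against 202 CPM at E16.5 (3.00, 2.8 to 3.22), 785 against 237 at E18.5 (3.31), 549 against 189 at P0 (2.90) and 3126 against 988 in adult C10 (3.16). Ptch1 had ratios of 0.73, 0.54, 0.83 and 0.44, Gli1 of 0.67, 0.42, 0.76 and 0.49, and Hhip of 0.62, 0.38, 0.49 and 0.11. Cells with an Ihh UMI were deeper at E16.5 (median 23436 against 19175 UMIs), P0 (28035 against 23671.5) and in the adult (38900 against 35180), and nearly equal at E18.5 (31867 against 31694). Past 2-fold were 1 gene higher and 0 lower at E16.5 (6.38% of all genes in either direction), 2 and 2 at E18.5 (8.29%, with Pthlh counted on 11 UMIs against 1), 1 and 2 at P0 (5.79%), and 1 and 3 in the adult (11.5%). The hypertrophic markers moved with this split (5 of 5, 4 of 5, 5 of 5 and 4 of 5 higher in cells with an Ihh UMI), with summed levels of 3107 against 1315 CPM at E16.5 and 7849 against 661 CPM in the adult. Other marker lists moved with it too: osteoblast markers were 4 of 5 higher in each library (summed level 289 against 208 CPM at E16.5, 407 against 241 at E18.5, 487 against 496 at P0 and 2096 against 710 in the adult), dividing-cell markers 0 of 4 in each, and resting cartilage markers 0, 1, 0 and 0 of 4 (229 against 603 CPM at E16.5). Cartilage markers were 8, 7, 5 and 6 of 8 higher. Their summed levels were 43716 against 39490 CPM at E16.5, 72554 against 65055 at E18.5, 68022 against 63293 at P0 and 113819 against 98460 in the adult. In the adult, CAR and adipogenic markers (4 of 4, 69.9 against 33.9 CPM) and perichondrium markers (3 of 3, 80.6 against 18.8 CPM) were higher as well. These lists had no common direction: perichondrium markers were 2, 1 and 0 of 3 higher in the perinatal libraries (53.0 against 50.02 CPM at E16.5, 58.0 against 67.8 at E18.5 and 99.6 against 150 at P0), and CAR and adipogenic markers 2, 0 and 2 of 4 (13.1 against 14.6, 8.57 against 14.6 and 14.0 against 10.2 CPM). Blood markers were 0 of 3 higher in each library, with summed levels of 0.841 against 5.02 CPM at E16.5, 0.102 against 1.92 at E18.5, 0.44 against 27.4 at P0 and 24.9 against 138 in the adult. The part of these lists in the levels of Pth1r, Ptch1, Gli1 and Hhip was not tested.

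At matched depth (1000 UMIs a cell), Pth1r was seen in 50.6% of E16.5 C5 cells with an Ihh UMI (44 of 87, 39.6 to 61.5) and 24.5% of those without (136 of 554). At P0 the shares were 42.0% (21 of 50, 28.2 to 56.8) and 20.9%, and in adult C10 93.9% (31 of 33) and 65.9%. At E18.5 they were 45.3% (24 of 53, 31.6 to 59.6) and 40.3% (140 of 347), and these intervals overlapped. Ptch1 was seen in 10.3% against 15.5% of the cells at E16.5, 9.43% against 15.9% at E18.5, 10% against 16.6% at P0 and 6.06% against 14.6% in the adult, each with overlapping intervals, so its lower level in cells with an Ihh UMI was not detectable at this depth.

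Adult Osteo, the osteo-lineage cluster, also held Ihh, in 39 of its 361 cells. These 39 cells had 2475 CPM of Pth1r against 880 CPM in the other 322 cells (2.81), and 55.2 CPM of Ptch1 against 53.1 CPM (1.04, 0.71 to 1.48). Among the 6 genes compared, 1 was higher and 1, Pthlh with 1 UMI against 52, was lower, where 29.5% of all genes passed the same fold. The 39 cells had 37934 CPM of Col2a1 against 4885 CPM, 3498 CPM of Col10a1 against 19.5 CPM, 6271 CPM of the osteoblast gene Bglap against 18862 CPM and 19817 CPM of Col1a1 against 40881 CPM. All 8 cartilage markers (summed level 57039 against 11465 CPM) and 4 of 5 hypertrophic markers (76515 against 15807 CPM) were higher in them, as were 2 of 5 osteoblast markers (29049 against 60965 CPM). Perichondrium (0 of 3 higher, 148 against 3231 CPM), fibroblast (0 of 4, 6233 against 16544 CPM) and tendon markers (0 of 3, 12.6 against 242 CPM) had lower summed levels in them, and CAR and adipogenic markers a higher one (2 of 4, 443 against 130 CPM). The part of these lists in the Pth1r level was not tested. By construction these 39 cells held all 326 Ihh UMIs of the cluster.

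In adult C9, the cartilage cluster with the most Pthlh, 142 cells with a Pthlh UMI were set against 433 without (medians 19687 and 19985 UMIs). Pth1r was lower in the cells with Pthlh (342 against 545 CPM, 0.63, 0.59 to 0.67), and Ihh was 0.347 against 5.88 CPM (1 against 52 UMIs). Ptch1 (1.12) and Hhip (0.98) were close to equal. The pathway's co-receptors Gas1 (99.2 against 33.6 CPM) and Boc (80.2 against 38.8 CPM) were higher in the cells with Pthlh. Gas1 is also 1 of the 4 resting cartilage markers, of which 3 were higher, Gas1 among them. Sfrp5 had 363 against 108 CPM but Ucma 1794 against 2233 CPM, and the summed level was 3185 against 2803 CPM. All 8 cartilage markers were lower (summed level 56290 against 76202 CPM), and fibroblast markers (4 of 4, 2912 against 1235 CPM) and perichondrium markers (2 of 3, 129 against 34.8 CPM) were higher, as were endothelial markers (3 of 4, 31.6 against 13.5 CPM). Their part in the levels of Pth1r and Ihh was not tested. Of 6 genes, 1 was lower past 2-fold, where 7.81% of all genes passed. In F8 (311 against 814 cells) Pth1r was 47.4 against 71.8 CPM (0.66) and none of 5 genes passed 2-fold, against 6.58% of all genes. In that split CAR and adipogenic markers had a summed level of 366 against 968 CPM (1 of 4 higher), osteoblast markers 5234 against 7024 CPM (2 of 5) and fibroblast markers 26430 against 31241 CPM (0 of 4). Endothelial markers were 20.9 against 8.61 CPM (4 of 4 higher) and tendon markers 56.2 against 142 CPM (0 of 3), and the part of these lists in the level of Pth1r was not tested. At matched depth in C9, 14.3% of cells with a Pthlh UMI had one of Pth1r (5 of 35, 4.81 to 30.3) against 34.4% of the rest (185 of 538).

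Across stages, the Ihh-rich cluster itself was set side by side. Between E16.5 and E18.5, Ihh (1.37) and Pth1r (1.42) were higher without passing 2-fold, and the only gene past it was Pthlh on 12 UMIs against 2 (6.87% of all genes passed). From E18.5 to P0, Ihh was lower (0.34, 0.32 to 0.36), Pth1r lay at the threshold (0.50, 0.48 to 0.52, counted as lower) and Hhip was higher (3.59, 2.95 to 4.39), where 10.2% of all genes passed. Cartilage markers shifted over the same steps: the resting cartilage marker Ucma was 2.98-fold and then 2.18-fold higher, Sfrp5 had ratios of 0.83 and 2.57, and the hypertrophic collagen Col10a1 of 0.30 and 0.65. Other hypertrophic markers did not all follow Col10a1 in the second step: Spp1 had ratios of 0.30 and 1.96, Mmp13 of 0.42 and 3.26 (on 8 to 59 UMIs) and Ibsp of 0.64 and 0.95. The osteoblast gene Bglap had ratios of 5.83 and 0.82. Adult C10 had 5.02-fold more Pth1r than P0 C5, and less Gli1 (0.50) and Pthlh (0.26, on 7 UMIs against 54), where 26.6% of all genes passed. Ihh was 1.70-fold and Hhip 1.66-fold higher there. Col10a1 was 7.52-fold, Ibsp, a bone matrix gene also made by hypertrophic chondrocytes, 5.26-fold and the osteoblast gene Bglap 28.9-fold higher in C10, and Sfrp5 (0.47), Ucma (0.51) and Mki67 (0.47) were lower. Mmp13 was 4.50-fold higher and Spp1 close to equal (0.97). The part of these marker shifts in the members' differences between stages was not tested. Whether C10 and C5 hold the same kind of cell cannot be told apart from a difference in level.

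Summed over all stromal cells, a sum in which fewer cells of a type and less RNA per cell cannot be told apart, Pth1r stood out in the adult. Its level was 106 CPM (E16.5), 140 CPM (E18.5), 98.5 CPM (P0) and 497 CPM (adult). Hhip was 22.3, 30.3, 48.4 and 101 CPM, and Pthlh 5.16, 8.03, 8.96 and 25.5 CPM, both highest in the adult. Ihh was 22.7, 30.8, 13.2 and 25.6 CPM, lowest at P0. Ptch1 (77.5 to 94.7 CPM), Smo (54.8 to 80.8 CPM) and Gli1 (12.7 to 15.6 CPM) moved least.

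From E16.5 to E18.5, 0 of 7 genes passed 2-fold in the whole stroma (10.5% of all genes passed), and from E18.5 to P0 only Ihh did (0.43; 7.78%). From P0 to the adult 3 of 7 were higher, Pth1r (5.04), Pthlh (2.85) and Hhip (2.08), where 33.2% of all genes passed. In the C clusters alone, 0 genes passed from E16.5 to E18.5 (8.05%) and 0 from E18.5 to P0 (8.81%), where Ihh was 21.5 against 41.9 CPM (0.51, 0.49 to 0.54), and 4 were higher in the adult (32.1%): Pth1r (1028 against 134 CPM, 7.65), Hhip (174 against 55.4, 3.14), Ihh (64.0 against 21.5, 2.98) and Pthlh (22.2 against 9.01, 2.46). Hypertrophic and osteoblast markers shifted over the same step. In the C clusters Col10a1 was 13.0-fold, Ibsp 7.71-fold, Bglap 64.9-fold and Sfrp5 6.04-fold higher in the adult, and Ucma (0.42) and Col1a1 (0.15) were lower. In the whole stroma Col10a1 was 11.8-fold, Ibsp 70.0-fold, Bglap 413-fold and Sfrp5 4.01-fold higher and Ucma lower (0.26), and the part of these markers in the members' levels was not tested. By the paired names, Ihh was lower at E18.5 than at E16.5 (6.02 against 41.4 CPM; 8.7% of all genes passed) and higher at P0 (26.4 against 6.02; 8.97%), a turn that goes with E18.5 C5 being paired with OLC and so left out. Pth1r (823 against 153 CPM), Hhip (179 against 31.7) and Pthlh (20.9 against 7.22) were higher in the adult by that grouping (29.6%). Ihh did not pass 2-fold by it (46.3 against 26.4 CPM, 1.75). Sums over the C clusters or the paired names have the limit of the whole stroma: numbers of cells and RNA per cell cannot be told apart. Of the 26 other pathway genes, 4 were higher and 1 lower past 2-fold between P0 and adult stroma: Scube2, which releases hedgehog ligand (28.0 against 12.1 CPM), Kif7, Evc and Runx3 were higher and Foxa2 (3.29 against 10.0 CPM) was lower.

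**Figure D5:**
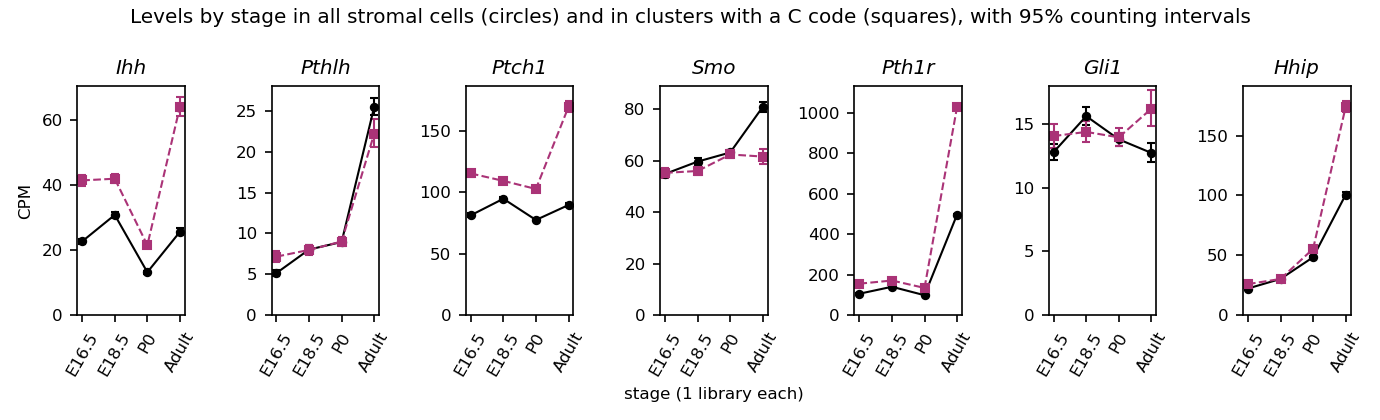
Level of each gene (CPM, linear axes from 0) at the 4 stages, 1 library each, over all stromal cells (circles) and over the C clusters (squares), with exact Poisson 95% intervals. Pth1r, Hhip and Pthlh were highest in the adult by both groupings.

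Among the other ligands and receptors of these families, Dhh, the hedgehog of Schwann cells, reached 77.3, 139 and 93.1 CPM in the perinatal Schwann clusters. Pth2r, the other receptor of the parathyroid hormone family, had 0 to 2 UMIs in any ranked cluster. Shh and Pth, also on the fixed list, are not among the genes of the mRNA count matrix.

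The genes most like each of the 7 across the 65 clusters of at least 50 cells were ranked by Pearson's r of log2(CPM + 1), a description over clusters that share libraries and depth. For Ihh they were Panx3 (0.82), Ppa1 (0.80), Prkg2, Tmie and Rhbdl2 (0.79 each), and for Pth1r they were Sp7 (0.86), Runx2 (0.83), Runx3 (0.80), H2-DMb1 (0.80) and Tmie (0.79). Sp7 and Runx2 are transcription factors of the osteoblast lineage, and Runx2 was also higher in C5 than in the other C clusters of the perinatal libraries. For Ptch1 the list was Runx3 (0.78), Col27a1, Wscd2, Slc35e3 (0.75 each) and Gdf10 (0.74), and for Gli1 it was Lrig3 (0.75), Pkdcc (0.71), Gli2, Zfp9 (0.70 each) and Sertad4 (0.69). For Hhip it was Foxd1 (0.82), Barx1, Tcfl5 (0.75 each), Sema3d (0.74) and Tiam2 (0.71), for Pthlh Sema3e (0.77), Ppt1 (0.75), Prkd1, Pkd1 and Sema3c (0.71 each), and for Smo Boc (0.74), Ism1 (0.72), Zfp503, Ltbp3 (0.68 each) and Foxp4 (0.67). Among the 7 themselves, r was 0.68 for Ihh with Pth1r, 0.66 for Ptch1 with Pth1r, 0.64 for Ptch1 with Gli1, 0.60 for Ihh with Ptch1, 0.57 for Hhip with Pthlh and -0.09 for Ihh with Pthlh.

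In Lineage-Kit+ haematopoietic progenitors, sorted from bone marrow of the same stages, the ligands were all but absent. These cells were released by crushing without digestion, so cell type and preparation cannot be told apart. Pthlh had 0 UMIs in each of the 5 libraries, Ihh 0 to 8, Gli1 0 to 9 and Hhip 0 to 6. Pth1r was 0.787 and 0.824 CPM in E16.5 replicates 1 and 2, 0.925 (E18.5), 0.824 (P0) and 2.11 CPM (adult). Ptch1 was 16.9 CPM in E16.5 replicate 1 and 16.0 CPM in replicate 2, and 13.9 (E18.5), 13.5 (P0) and 12.7 CPM (adult) later on, under all whole-stroma values. Smo was 21.1 CPM in E16.5 replicate 1 and 54.9 CPM in replicate 2, and 20.1 (E18.5), 22.4 (P0) and 8.85 CPM (adult) later on, so the replicates of E16.5 (560 and 4752 cells) differed by more than the later stages did.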

How the data were processed

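The mRNA libraries were made with 10x Genomics 3' v3.1 chemistry. Per the study's methods and the submitters' notes, the authors processed reads with Cell Ranger 3.1.0 against mm10 and filtered and clustered cells with Seurat 3.1.5 in R 4.0. Doublets were treated only by an upper cut on genes and UMIs per cell. The deposited mRNA matrix holds unnormalized UMI counts, and comes with a table of cluster codes that assigns cells to libraries. The antibody (ADT) libraries were not used, and 0 columns of per-sample values were left unmapped.

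Cluster sums were computed from these counts with Python 3.11.15, numpy 2.4.6, scipy 1.17.1 and pandas 2.3.3. CPM had exact Poisson 95% intervals, ratios exact conditional binomial intervals, and shares Clopper-Pearson intervals after thinning cells to 1000 UMIs, where shallower cells were left out. A ratio was counted past 2-fold with at least 10 UMIs in the higher group, and a share of 0 allows up to 3 counts. Clusters under 50 cells were not ranked. Stages had 1 stromal library, so no test was run. The ratio and its interval were tested on simulated data. Named genes were the 7 members, a fixed list of pathway genes and markers, and the 5 genes most like each member by Pearson's r of log2(CPM + 1), with a pseudocount of 1 and at least 200 UMIs. Study names were paired with codes through 50 markers per name, and 65 of 66 clusters ranked highest for their name. Promoter sequences and gene positions come from RefSeq (GRCm38.p6). Members and lists were chosen with earlier results of these data known. The grouping by C codes, the comparison of C5 or C10 with other clusters and the splits by Ihh, Pthlh and Col10a1 were added after seeing the data. Alternatives changed the cell set, the denominator, the thinning depth and the definition of cartilage.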

Additional observations from a re-analysis of the deposited data

Results flagged for a closer look

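The ratio of Ptch1 in the Ihh-rich cluster to that in the other C clusters of its library pointed one way in the perinatal libraries and the other way in the adult: 1.95 at E16.5, 1.71 at E18.5 and 3.09 at P0 for C5, and 0.828 for adult C10. The ratio of Gli1 did the same, with 1.13 at E16.5, 1.01 at E18.5 and 1.48 at P0 for C5, and 0.421 for adult C10, and at E16.5 and E18.5 its counting interval held 1. By the paired names, which count F9 as cartilage, adult cartilage as a whole had 151 CPM of Ptch1 against 152 CPM in C10. The turn of Ptch1 thus held only by C codes. For Gli1 the same values were 17.4 against 9.23 CPM, so C10 stayed lower. With 1 library per stage, the difference between stages was not tested.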

How the results depend on the processing

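No paired analysis was possible because no result came from a test and each stage had 1 stromal library. The count of genes highest in a cartilage cluster turned on which clusters count as cartilage: it was 2 at E18.5 by the paired names, 5 by C codes and 7 by at least 1000 CPM of Col2a1, and at P0 it was 4 by the paired names and 7 by Col2a1. At E18.5 and P0 all 15 and 19 clusters reached that level of Col2a1, so there it sets no cartilage apart and the 7 of 7 follow from it. The single gene past 2-fold from E16.5 to E18.5 in cartilage became 0 by C codes, 0 by Col2a1 and 2 with a denominator without mitochondrial, ribosomal protein and haemoglobin genes, and the single gene from E18.5 to P0 became 0 by C codes. In the whole stroma from E18.5 to P0, 1 gene became 0 with the mean over cells of each cell's CPM. Of 66 recomputed counts, 58 stayed within 1.5 times the value given. Of 112 recomputed levels, 64 stayed within their interval, with ratios to the value given from 0.688 (Ihh in adult C10 without the 5% of cells with the most UMIs) to 1.49, and of 344 recomputed ratios within a library or between C5 and C10, none of them under another definition of cartilage, 289 stayed within their interval and 0 turned direction. The definition of cartilage does bear on the ratios within a library. By the paired names, Hhip at P0 and Ptch1 in the adult were not lower in the Ihh-rich cluster than in the remaining cartilage. Ratios between stages turned as well: of 210 recomputed, 104 stayed within their interval and 21 turned, 19 of them with the definition of cartilage. From E16.5 to E18.5 these were, by Col2a1, Ihh (1.24), Ptch1 (1.13) and Pth1r (1.28), and by C codes Ihh (1.01) and Pth1r (1.1). From E18.5 to P0 they were Ihh (0.43 by Col2a1, 0.51 by C codes), Ptch1 (0.82, 0.94), Hhip (1.60, 1.83), Smo (1.06, 1.11), Pthlh (1.12, 1.13) and Pth1r (0.70, 0.79), and from P0 to the adult Gli1 (0.96 by Col2a1) and Smo (0.99 by C codes). In the whole stroma Ptch1 turned from P0 to the adult (0.96 with the mean over cells and 0.96 with the other denominator). Only 5 of 38 recomputed shares stayed within theirs, since the thinning depth sets the size of a share. Depth limits Pthlh in C5 and C10, where it rests on 2 to 54 UMIs.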
